A study of Rattus norvegicus with 84 samples.

Results

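The shell of the nucleus accumbens was compared between rats of the Ext_Sal group and rats of the Ctx_Sal group, the conditions Ext and Ctx within the saline arm of a cocaine study. The comparison comprised 14 of the 84 libraries in the series, 7 of each group, and the libraries were chosen by the subregion and treatment in their titles. All rats were wild-type and of the Long-Evans strain, and both groups carry the label Sal, for saline. Ext is the series' label for extinction. Ctx commonly stands for context in this field, and HC, the label of a further condition, for home cage, neither of which the labels state. The series set out to study cocaine withdrawal and extinction in the accumbens core and shell. The labels give no ages. Whether the 7 libraries of a group stem from 7 different animals is also not stated, and the p-values therefore rest on variation among libraries, part of which may be technical.

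The nucleus accumbens is the ventral part of the striatum. Most of its neurons are GABAergic projection neurons, which carry either the dopamine receptor Drd1 with the peptides substance P and dynorphin, or the dopamine receptor Drd2 with enkephalin. Glutamatergic input arrives from prefrontal cortex, hippocampus and amygdala, whose neurons use the vesicular transporter Slc17a7, while the projection neurons of the striatum themselves do not. Immediate early genes such as Fos, Arc and Egr1 are transcribed within minutes of strong synaptic activity and are read as a trace of recent neuronal activity.

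Libraries held 13.9 to 16.8 M (mega) counts in Ext_Sal and 15.3 to 22.1 M in Ctx_Sal. In each group 2 libraries belonged to series 3, 3 to series 4 and 2 to series F, as the titles number them. Levels are given as log2 CPM, the log2 of counts scaled to a common library total, and differences as log2 fold changes, Ext_Sal minus Ctx_Sal. The projection neuron genes of the labelled tissue were abundant in all 14 libraries. Drd2 stood at 6.07 to 7.40 log2 CPM in Ext_Sal and at 6.47 to 7.38 in Ctx_Sal. Transcripts of cortical glutamatergic neurons were abundant in some libraries and not in others. Slc17a7 stood at 7.00, 7.61 and 5.70 log2 CPM in the Ctx_Sal libraries 3-17, 4-17 and 22-F. The other 4 Ctx_Sal libraries lay between 1.95 and 3.43, and the 7 Ext_Sal libraries between 1.95 and 2.99. A second measure set a different pair of libraries apart. Summed counts of 2033 receptor genes of the olfactory and vomeronasal organs were highest of the 14 in Ext_Sal 12-F and lowest in Ctx_Sal 24-F. This sum is called receptor gene background here, and whether these genes are silent in the tissue was not tested. Results that rest on these 5 libraries are given with and without them. Without all 5, Ctx_Sal keeps only 3-18, 4-16 and 4-18, with no library of series F, while Ext_Sal loses only 12-F. Values without all 5 thus rest on few Ctx_Sal libraries, which by itself can lower the number of genes at a low p.

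No gene passed the threshold between the conditions. Of 30911 genes tested, 0 were higher and 0 lower in Ext_Sal at an adjusted p of 0.05 (0%), and the lowest adjusted p was 0.509 (edgeR's quasi-likelihood test with Benjamini-Hochberg adjustment). DESeq2 also called 0 genes. At an unadjusted p under 0.05 there were 2572 genes (8.32%), with 631 higher (2.04%) and 1941 lower (6.28%) in Ext_Sal. A count of 1546 would stand there for independent genes without a difference, and genes within a library are not independent. With only the 14 compared libraries in the fit, the count of 2572 became 714 of 28882 genes (2.47%), with 339 higher and 375 lower. The count also moved with single libraries. It was 630 without Ctx_Sal 24-F, 1019 without Ext_Sal 12-F and 1424 without Ext_Sal 3-6, and it was 5698 without Ext_Sal 4-4, 5192 without Ctx_Sal 22-F and 4142 without Ctx_Sal 4-16. In each of these settings 0 genes passed the adjusted threshold. The groups did not overlap in 3 genes that were lower (0.00971%) and 6 that were higher (0.0194%) in all Ext_Sal libraries than in all Ctx_Sal libraries. The 3 lower ones were Scyl3, Sgf29 and LOC120100898, and among the higher ones were Guca2a, the precursor of the gut peptide guanylin, and Oas1k, a member of the interferon-induced oligoadenylate synthetase family. These were named after their values were seen. Scyl3 stood at 3.68 to 3.85 log2 CPM in Ext_Sal and at 3.87 to 4.22 in Ctx_Sal, a log2 fold change of -0.19 ± 0.07 (SE, adjusted p = 0.509).

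The widest differences were in transcripts of cortical glutamatergic neurons. Of the 16 such markers, 12 had an estimate below 0 and 9 had an unadjusted p under 0.05, all on the lower side, with a median log2 fold change of -0.78 beside 0.04 over all genes tested. None passed the adjusted threshold. Slc17a7, the vesicular glutamate transporter of cortical neurons, had a lowest, median and highest level of 1.95, 2.59 and 2.99 log2 CPM in Ext_Sal, against 1.95, 3.43 and 7.61 in Ctx_Sal. All 7 Ext_Sal libraries lay below the Ctx_Sal mean, and the groups overlapped in their lower ranges. The log2 fold change was -3.05 ± 0.94 (SE, edgeR adjusted p = 0.509).

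The same 3 Ctx_Sal libraries were also high for Neurod2 and Cck. Neurod2, a transcription factor of cortical projection neurons, stood at 3.83, 4.37 and 2.66 log2 CPM in Ctx_Sal 3-17, 4-17 and 22-F. Its range was -0.28 to 0.77 in Ext_Sal, with a median of 0.24, and the Ctx_Sal median was 0.66. Cck, a neuropeptide of cortical pyramidal cells and of interneurons, stood at 4.89, 5.43 and 3.78 in these 3 libraries, while the 7 Ext_Sal libraries lay within 1.42 to 1.80 and the Ctx_Sal median was 1.70. Tbr1, a transcription factor of deep cortical layers, had a range of 2.25 to 2.89 in Ext_Sal and of 1.93 to 5.00 in Ctx_Sal. The log2 fold changes were -2.35 ± 0.73 for Neurod2, -2.21 ± 0.69 for Cck and -1.02 ± 0.43 for Tbr1 (SE, adjusted p = 0.509 each). Summed CPM of the 16 markers set 22-F less apart. On the log2 scale it was 10.52, 10.42 and 9.86 in Ctx_Sal 3-17, 4-17 and 22-F, and 10.15 in Ctx_Sal 24-F. The Ext_Sal libraries lay between 8.98 and 9.86. The group means differed by -0.47 (two-sided exact permutation p = 0.0367, adjusted p = 0.514 over 14 such measures). The mean of log2 CPM over the markers differed by -0.56 (exact p = 0.12).

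Without Ctx_Sal 3-17, 4-17 and 22-F, the log2 fold change was 0.03 ± 0.97 for Slc17a7, 0.32 ± 0.79 for Neurod2 and 0.04 ± 0.73 for Cck. The median over the 16 markers was then 0.04, and 0 of them had an unadjusted p under 0.05. These libraries were set aside because of their Slc17a7 level, so these values describe the remaining libraries and carry no test. Taken series by series, the log2 fold change of Slc17a7 was -3.67 ± 1.47 (series 3), -3.76 ± 1.25 (series 4) and -1.95 ± 0.98 (series F), and each series held 1 of the 3 libraries. In bulk tissue, more cells of a type and more RNA per cell cannot be told apart.

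**Figure D1:**
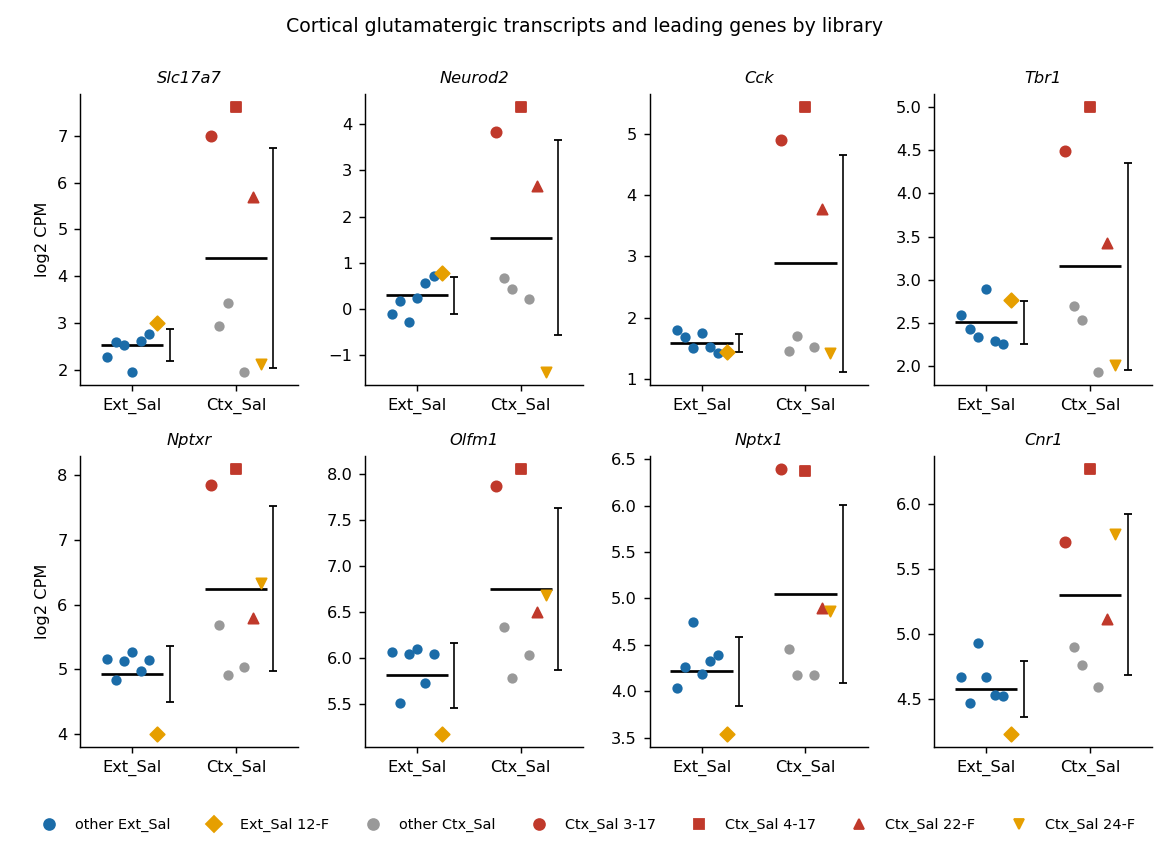
Levels in log2 CPM of 4 cortical glutamatergic transcripts (top) and of 4 further genes (bottom) in each of the 7 Ext_Sal and 7 Ctx_Sal libraries; horizontal lines are group means and vertical bars ± 1 SD. The Ctx_Sal libraries 3-17, 4-17 and 22-F stand at 7.00, 7.61 and 5.70 for Slc17a7, above the highest Ext_Sal library at 2.99.

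Other groups of the series also held libraries of this kind. Slc17a7 exceeded 5 log2 CPM in 0 of 7 Ext_Sal and 3 of 7 Ctx_Sal Shell libraries, a line drawn after the values were seen. In the other Shell groups it did so in 1 of 7 Ext_Coc, 0 of 7 Ctx_Coc, 3 of 7 HC_Coc and 2 of 7 HC_Sal libraries. The highest Ext_Coc library stood at 7.91, close to the highest Ctx_Sal library. In the core, Slc17a7 lay between 1.41 and 3.58 in the 7 Ext_Sal libraries. Of the 7 Ctx_Sal libraries of the core, 1-17, 2-17 and 21-F stood at 6.44, 6.40 and 6.53, and the others lay between 1.55 and 3.66. The second numbers of 1-17 and 2-17 are those of Shell 3-17 and 4-17, and the labels do not say whether they share an animal.

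Nptxr and Olfm1 had the widest differences among the 10 genes of lowest p on the lower side. Nptxr, the neuronal pentraxin receptor that helps cluster AMPA receptors, had a range of 4.00 to 5.26 log2 CPM in Ext_Sal with a median of 5.13, against 4.91 to 8.09 with a median of 5.80 in Ctx_Sal. Its log2 fold change was -1.71 ± 0.42 (SE, edgeR unadjusted p = 0.000216, adjusted p = 0.509), and 7 of 7 Ext_Sal libraries lay below the Ctx_Sal mean. The levels of 7.84 and 8.09 belonged to Ctx_Sal 3-17 and 4-17, and the level of 4.00 to Ext_Sal 12-F. Olfm1, a secreted olfactomedin found in AMPA receptor complexes, had a range of 5.18 to 6.10 in Ext_Sal with a median of 6.05, against 5.79 to 8.05 with a median of 6.50 in Ctx_Sal. Its log2 fold change was -1.12 ± 0.31. Outside these 10, Nptx1, a secreted neuronal pentraxin, had a log2 fold change of -1.04 ± 0.32, and Cnr1, the cannabinoid receptor of presynaptic terminals, of -0.85 ± 0.26.

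These values moved with the libraries rich in cortical transcripts. Without Ctx_Sal 3-17, 4-17 and 22-F the log2 fold change was -0.68 ± 0.41 for Nptxr, -0.41 ± 0.31 for Olfm1 and -0.54 ± 0.28 for Cnr1. Without all 5 libraries set apart above it was -0.03 ± 0.44 for Nptxr, -0.09 ± 0.34 for Olfm1 and -0.06 ± 0.29 for Cnr1. Taken series by series, Nptxr had -2.13 ± 0.77 (series 3), -1.67 ± 0.57 (series 4) and -1.43 ± 0.39 (series F). The part of the cortical transcripts in these differences was not tested.

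The remaining genes of lowest p on the lower side differed by less. Mmd, a membrane protein of the progestin and adiponectin receptor family, had a log2 fold change of -0.57 ± 0.16, and its range was 4.76 to 5.48 log2 CPM in Ext_Sal against 5.25 to 6.10 in Ctx_Sal. Pdp1, the phosphatase that activates pyruvate dehydrogenase, had -0.58 ± 0.16, and Slc19a2, a thiamine transporter, -0.37 ± 0.11. Id2, an inhibitor of basic helix-loop-helix transcription factors, had -0.74 ± 0.22, with 1.89 to 2.96 in Ext_Sal against 2.36 to 3.87 in Ctx_Sal. B3gat1, which makes the HNK carbohydrate of neural adhesion molecules, had -0.52 ± 0.16. Plekha3, a Golgi phosphoinositide-binding protein, had -0.30 ± 0.09, and Fam174a -0.32 ± 0.10. Lrrc73 had -0.56 ± 0.17, and its lowest level, 1.93, was again that of Ext_Sal 12-F. All these genes had 7 of 7 Ext_Sal libraries below the Ctx_Sal mean and an adjusted p of 0.509, and in each the groups overlapped. Over the 30 other settings the estimate nearest 0 was -0.10 for Id2 and B3gat1 and -0.12 for Mmd and Fam174a. It was -0.19 for Plekha3, -0.20 for Slc19a2 and -0.21 for Pdp1 and Lrrc73.

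On the higher side the genes of lowest p were a mixed group with narrower differences. Cysltr1, a receptor for cysteinyl leukotrienes, had a range of 1.63 to 2.59 log2 CPM in Ext_Sal with a median of 1.93, against 0.80 to 1.93 with a median of 1.54 in Ctx_Sal. Its log2 fold change was 0.61 ± 0.18 (SE, edgeR unadjusted p = 0.00148, adjusted p = 0.509), and 7 of 7 Ext_Sal libraries lay above the Ctx_Sal mean. Without the 5 libraries it was 0.26 ± 0.21. Mfng, a fringe glycosyltransferase that modifies Notch receptors, had 0.45 ± 0.16, with 2.71 to 3.05 in Ext_Sal against 2.03 to 3.03 in Ctx_Sal. Chst3, a sulfotransferase of chondroitin chains, had 0.44 ± 0.15. Prok2, a secreted prokineticin, had 0.45 ± 0.15, and Sting1, the adaptor of cytosolic DNA sensing, 0.46 ± 0.17. Zfp488, a zinc finger protein of oligodendrocytes, had 0.27 ± 0.09, with 2.49 to 2.73 in Ext_Sal and 2.17 to 2.52 in Ctx_Sal. Wdr97, Trim34, Cdca7l and Arhgef26 completed the 10, with 0.44 ± 0.17, 0.27 ± 0.10, 0.32 ± 0.12 and 0.17 ± 0.07. None of these passed the adjusted threshold (adjusted p = 0.509 each). Both sets of 10 kept their direction in all 30 other settings of the processing. They were chosen by their p in these same libraries, so the kept direction is no separate support. The estimates came to as little as -0.03 for Nptxr, 0.03 for Mfng, 0.06 for Cdca7l and -0.09 for Olfm1.

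Most immediate early genes had lower estimates in Ext_Sal, and none passed the adjusted threshold. Of 40 listed, 39 were tested, 33 had an estimate below 0, and 14 had an unadjusted p under 0.05 on the lower side and 1 on the higher side. The median log2 fold change was -0.33, and the median level of the list was 3.19 log2 CPM. Over all genes tested, 46% had an estimate below 0 and 6.28% had an unadjusted p under 0.05 on the lower side. Among genes at 3 to 5 log2 CPM, 62.3% had an estimate below 0, with a median of -0.08. Of these 7861 genes, 721 had an unadjusted p under 0.05 on the lower side and 45 on the higher side. Arc, whose protein removes AMPA receptors from synapses, had a range of 3.78 to 5.15 log2 CPM in Ext_Sal with a median of 4.57, against 4.73 to 6.06 with a median of 5.33 in Ctx_Sal. The groups overlapped between 4.73 and 5.15, and the log2 fold change was -0.73 ± 0.27 (SE, edgeR adjusted p = 0.509). Nptx2, an activity-induced secreted pentraxin, had a range of 2.11 to 3.28 in Ext_Sal and 2.75 to 4.69 in Ctx_Sal, with a log2 fold change of -0.85 ± 0.27. Egr4, a zinc finger factor, had 0.90 to 2.79 in Ext_Sal and 2.49 to 3.61 in Ctx_Sal, with -0.73 ± 0.27, and Klf10, a Krüppel-like factor, had -0.56 ± 0.19. The lowest Arc, Nptx2 and Egr4 levels belonged to Ext_Sal 12-F.

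The transcription factors most used as activity markers showed the same sign with smaller values. Fos had a range of 2.38 to 2.88 log2 CPM in Ext_Sal with a median of 2.67, against 2.49 to 3.53 with a median of 3.14 in Ctx_Sal, and a log2 fold change of -0.40 ± 0.21. Egr1 had -0.48 ± 0.24, Npas4, an activity-dependent factor of inhibitory synapse formation, -0.39 ± 0.18, and the orphan nuclear receptor Nr4a1 -0.42 ± 0.18 (SE, adjusted p = 0.509 each). In series 3 the values were -0.87 ± 0.25 for Fos, -1.20 ± 0.39 for Arc and -0.78 ± 0.18 for Npas4. In series 4 they were -0.21 ± 0.28, -0.40 ± 0.39 and -0.36 ± 0.27, and in series F -0.20 ± 0.48, -0.81 ± 0.46 and -0.01 ± 0.32. Over all 39 genes tested, the median was -0.54 with 34 below 0 in series 3, -0.12 with 24 below 0 in series 4 and -0.33 with 34 below 0 in series F. The difference between series was not tested.

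The estimates were also taken with libraries left out. Without Ctx_Sal 3-17, 4-17 and 22-F the median over the 39 genes was -0.29, with 6 at an unadjusted p under 0.05 on the lower side, and without Ext_Sal 12-F and Ctx_Sal 24-F it was -0.28, again with 6. Without all 5 it was -0.10, with 1 gene at an unadjusted p under 0.05, and with receptor gene background and cortical marker level as covariates it was -0.04, with 0 on the lower side. Without all 5 libraries, Fos had -0.36 ± 0.29, Npas4 -0.37 ± 0.23, Nr4a1 -0.31 ± 0.24, Arc -0.32 ± 0.34 and Egr1 -0.10 ± 0.31. The level in HC_Sal, the remaining saline group of the shell, is given for scale and without a test. Arc averaged 4.59 ± 0.49 log2 CPM in Ext_Sal, 5.37 ± 0.43 in Ctx_Sal and 5.72 ± 0.40 in HC_Sal, and Fos 2.63 ± 0.18, 3.02 ± 0.38 and 3.48 ± 0.27 in the same order (SD, n = 7 each). For both genes the mean of Ext_Sal was the lowest of the 6 Shell groups.

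**Figure D2:**
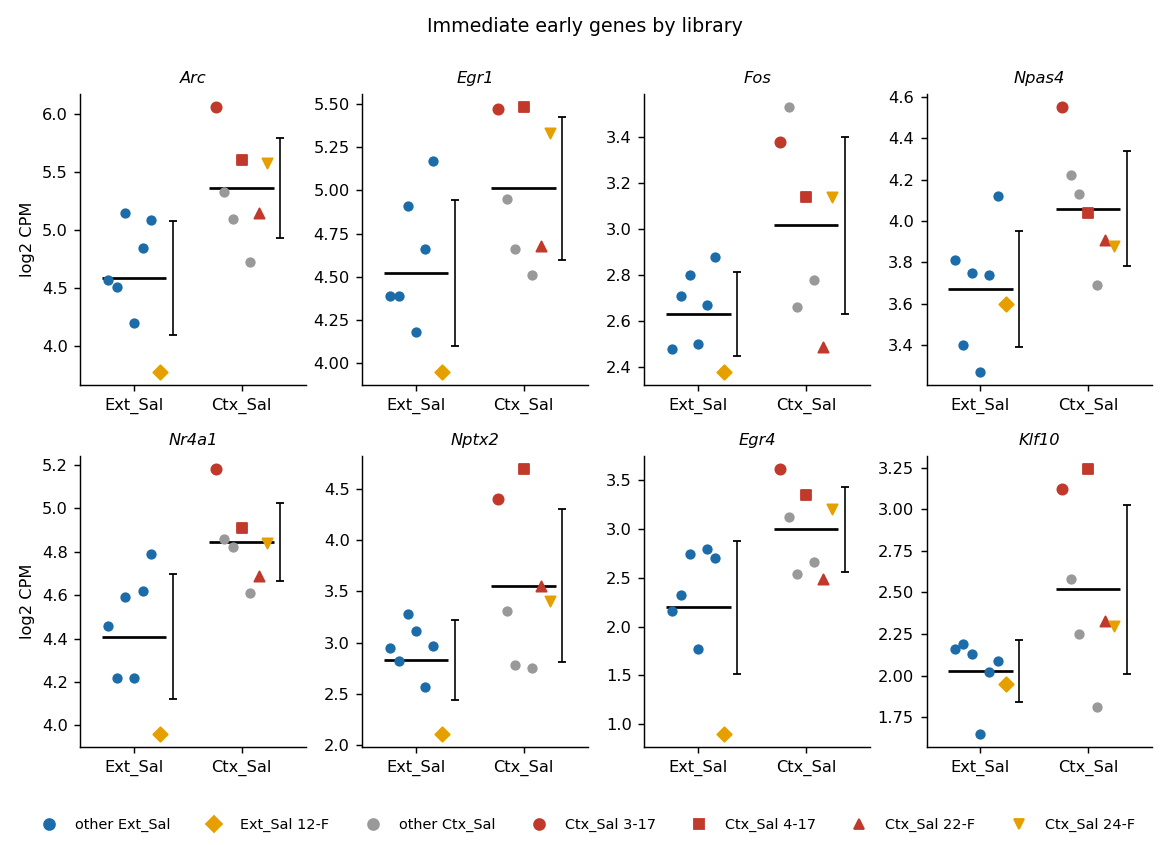
Levels in log2 CPM of 8 immediate early genes in each of the 7 Ext_Sal and 7 Ctx_Sal libraries of the shell; horizontal lines are group means and vertical bars ± 1 SD. The groups overlap in every panel, and the lowest Arc level, 3.78, is that of Ext_Sal 12-F.

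Estimates for genes of neuronal signalling lay mostly below 0, as did those of abundant genes in general. Among all genes tested at a mean of 5 log2 CPM and over, 83.6% had an estimate below 0, with a median of -0.17. Of these 5368 genes, 841 had an unadjusted p under 0.05 on the lower side. Of 24 genes of synaptic vesicle release, 23 had an estimate below 0 and 11 had an unadjusted p under 0.05 on the lower side, with a median log2 fold change of -0.34. Stx1a, a plasma membrane SNARE protein, had a range of 3.80 to 4.42 log2 CPM in Ext_Sal and 3.95 to 5.37 in Ctx_Sal, with a log2 fold change of -0.68 ± 0.21. Bsn, a scaffold of the presynaptic active zone, had -0.56 ± 0.20, and the SNARE protein gene Snap25 -0.45 ± 0.17. Without the 5 libraries the median over the list was -0.02, with -0.05 ± 0.25 for Stx1a and -0.04 ± 0.20 for Snap25.

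Ion channels and receptors followed the same sign, as did 83.6% of all genes tested at 5 log2 CPM and over, whose median was -0.17. All 23 potassium channel genes had an estimate below 0, with a median of -0.27 and 6 at an unadjusted p under 0.05. Kcnj9, a G protein-gated channel subunit, had -0.43 ± 0.16. Of 22 sodium and calcium channel genes 21 had an estimate below 0, with a median of -0.23. Of 27 glutamate receptor genes 21 were below 0 and 8 had an unadjusted p under 0.05, with a median of -0.16. Gria3, an AMPA receptor subunit, had 6.44 to 7.31 log2 CPM in Ext_Sal and 6.86 to 8.02 in Ctx_Sal, a log2 fold change of -0.53 ± 0.19. Grin2b, an NMDA receptor subunit, had -0.38 ± 0.15. All 19 GABA genes were below 0, with a median of -0.14, and Gabbr2, a subunit of the metabotropic GABA receptor, had -0.23 ± 0.09. Without the 5 libraries the medians of these lists were all -0.03.

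Among dopamine and monoamine receptor genes, 14 of 21 had an estimate below 0, with a median of -0.13. That count is near the background share. The median level of the list was 4.15 log2 CPM, and 62.3% of all genes at 3 to 5 log2 CPM had an estimate below 0. The median log2 fold change of the list was 0.01 without Ext_Sal 12-F and Ctx_Sal 24-F and 0.04 without all 5 libraries, where 8 of 21 were below 0. The serotonin receptor gene Htr2a had a narrow range of 4.67 to 4.96 log2 CPM in Ext_Sal, against 4.95 to 5.52 in Ctx_Sal, so the groups overlapped by 0.01. Its log2 fold change was -0.31 ± 0.09 (edgeR unadjusted p = 0.00217, adjusted p = 0.509), and without the 5 libraries it was -0.19 ± 0.11. Adra1a, an alpha adrenergic receptor, had 5.32 to 5.45 in Ext_Sal and 5.40 to 6.18 in Ctx_Sal, with -0.30 ± 0.10, and without the 5 libraries -0.09 ± 0.11.

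None of the genes that define the projection neurons of the shell passed the adjusted threshold. Drd1 had a log2 fold change of -0.11 ± 0.21 and Drd2 of -0.13 ± 0.19, with edgeR adjusted p of 0.745 and 0.663. Penk, which encodes enkephalin, had a range of 6.27 to 7.54 log2 CPM in Ext_Sal and 5.90 to 8.30 in Ctx_Sal, with -0.35 ± 0.25, and Tac1, which encodes substance P, had -0.29 ± 0.24. The sign of Drd1 differed by series, with -0.64 ± 0.21 (series 3), 0.57 ± 0.27 (series 4) and -0.53 ± 0.42 (series F). Over all series it was 0.12 ± 0.21 without Ext_Sal 12-F and Ctx_Sal 24-F. Summed CPM of the 9 markers of Drd1 neurons differed by -0.01 on the log2 scale (two-sided exact permutation p = 0.890, adjusted p = 0.890 over 14 such measures), and of the 8 markers of Drd2 neurons by -0.12 (exact p = 0.379, adjusted p = 0.749). Of the 9 markers of Drd1 neurons, 6 had an estimate below 0 with a median of -0.18, and Ebf1, a transcription factor of these neurons, had 0.22 ± 0.10 (edgeR unadjusted p = 0.0388, adjusted p = 0.509). Without Ctx_Sal 3-17, 4-17 and 22-F the median was -0.31, with 4 markers at an unadjusted p under 0.05 on the lower side and 1 on the higher side, and without all 5 libraries it was -0.05 with 0 on either side. All 20 genes of cAMP signalling in projection neurons had an estimate below 0, with a median of -0.24, which was -0.03 without Ext_Sal 12-F and Ctx_Sal 24-F. Their median level was 8.06 log2 CPM, and 83.6% of all genes at 5 log2 CPM and over were below 0. In series 4 alone 16 of the 20 were above 0, with a median of 0.17. All 20 were below 0 in series 3 and in series F, with medians of -0.41 and -0.73.

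The transcription and chromatin regulators had 29 of 32 estimates below 0, with a median of -0.20. The median levels of this list and of the mitochondrial and clock lists below were 6.48, 10.65 and 5.67 log2 CPM. Of all genes tested at 5 log2 CPM and over, 83.6% had an estimate below 0, with a median of -0.17. Mef2c, a transcription factor that restrains synapse number, had 6.18 to 6.58 log2 CPM in Ext_Sal and 6.28 to 7.40 in Ctx_Sal, a log2 fold change of -0.46 ± 0.15. The calcium and calmodulin kinase gene Camk2a, which is also a marker of cortical pyramidal cells, had -0.54 ± 0.19. Without the 5 libraries both came to -0.03, with SEs of 0.17 and 0.22. All 13 protein genes of the mitochondrial genome were below 0, with a median of -0.29. ND6, a subunit of respiratory complex I, had 8.04 to 8.74 in Ext_Sal and 8.16 to 9.37 in Ctx_Sal, with -0.58 ± 0.20, and COX3, a subunit of cytochrome oxidase, had -0.44 ± 0.15. ND6 kept -0.55 ± 0.27 without the 5 libraries, while the median of the list was then -0.09. All 18 circadian clock genes were below 0 with a median of -0.24, among them the repressor Cry2 with -0.36 ± 0.14, and the median without the 5 libraries was -0.04.

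Among glial markers, 13 of 14 astrocyte markers had an estimate below 0 with a median of -0.23 and 0 at an unadjusted p under 0.05, and 10 of 14 microglial markers with a median of -0.19 and 4 at an unadjusted p under 0.05 on the lower side. The median level was 5.94 log2 CPM for astrocyte markers, and 83.6% of all genes at 5 and over were below 0. For microglial markers it was 2.78. Of all 8861 genes at 1 to 3 log2 CPM, 30.8% were below 0 and 278 had an unadjusted p under 0.05 on the lower side. The median log2 fold changes of both lists were -0.01 without the 5 libraries, and in series 4 alone they were 0.15 for astrocyte and 0.12 for microglial markers. Oligodendrocyte and myelin markers had a median of -0.06, which was -0.29 without Ctx_Sal 3-17, 4-17 and 22-F and 0.17 without Ext_Sal 12-F and Ctx_Sal 24-F. Mural and fibroblast markers had 13 of 14 estimates above 0 with a median of 0.19, and without the 5 libraries the median was -0.35. Their summed level was high in Ext_Sal 3-6 and 12-F, at 9.42 and 8.68 log2 CPM, and in Ctx_Sal 3-18, at 9.60, while the other 11 libraries lay between 7.33 and 7.58. Without the 5 libraries Ctx_Sal keeps only 3-18, 4-16 and 4-18, so 3-18 weighs heavily in the median of -0.35. Over all genes tested, 54% had an estimate above 0. Choroid plexus and ependymal markers had 10 of 11 above 0 with a median of 0.20, which was 0.04 without Ext_Sal 12-F and Ctx_Sal 24-F. Their median level was 1.90 log2 CPM, and all genes at 1 to 3 log2 CPM had a median of 0.15, with 30.8% below 0. Aqp1, a water channel of choroid epithelium, had 0.59 ± 0.23, and 0.23 without Ext_Sal 3-6, its highest library. Of 11 genes of BDNF and GDNF signalling 4 had an estimate below 0, with a median of 0.02. Ntrk2, the receptor of BDNF, had -0.28 ± 0.12, the growth factor gene Gdnf 0.22 ± 0.10 and its receptor gene Ret 0.28 ± 0.14. Of the matrix genes, Timp1, an inhibitor of matrix metalloproteinases, had -0.47 ± 0.16, and -0.24 without Ctx_Sal 3-18, its highest library. The aggrecan-cleaving protease Adamts5 had 0.28 ± 0.14. The DNA repair gene Lig4 had -0.04 ± 0.18, and the glycogen metabolism genes Phkg1 and Ppp1r3g had -0.21 ± 0.10 and -0.22 ± 0.23. None of the 33 lists held a gene past the adjusted threshold.

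**Figure D3:**
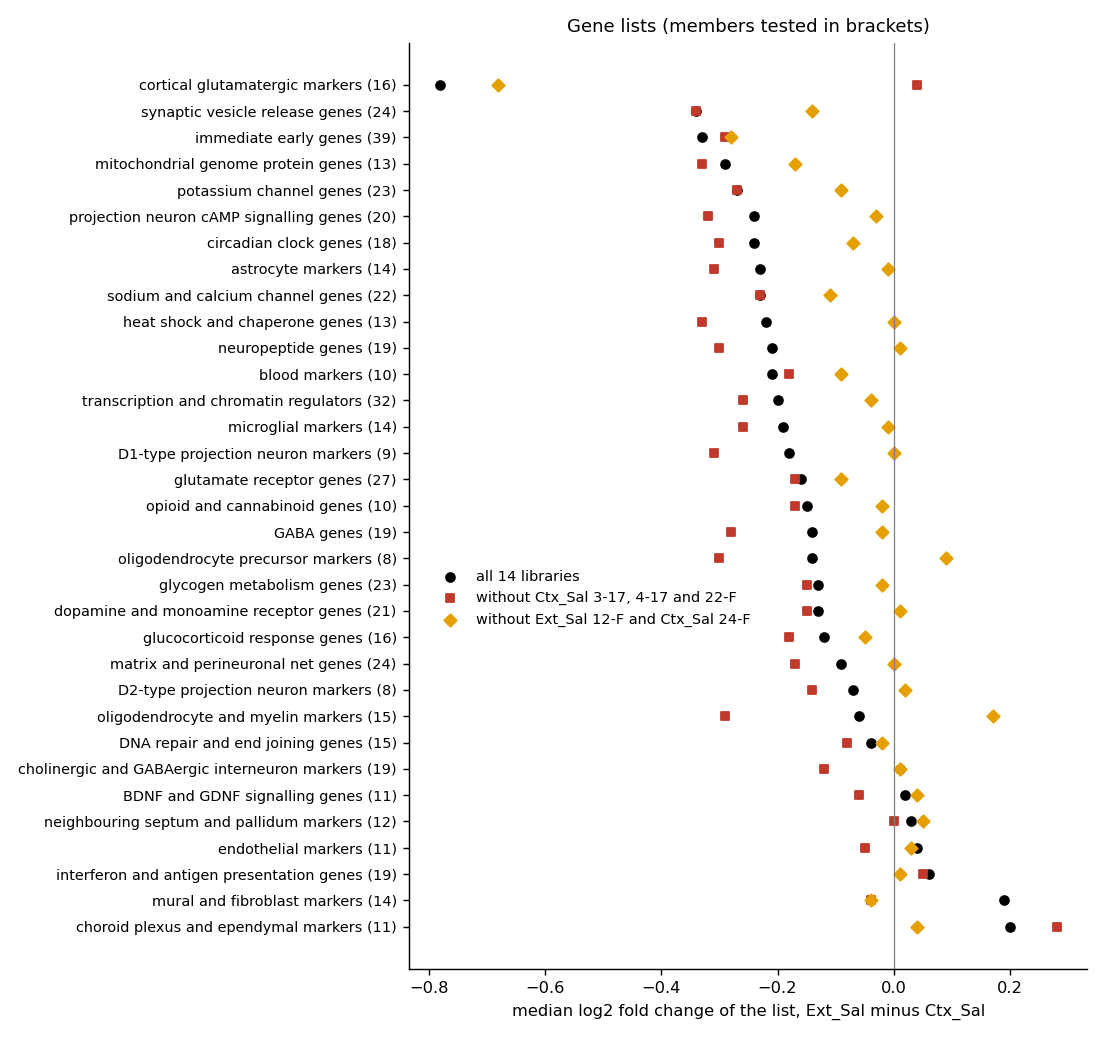
Median log2 fold change, Ext_Sal minus Ctx_Sal, of the members of each of 33 gene lists, with all 14 libraries (circles), without Ctx_Sal 3-17, 4-17 and 22-F (squares) and without Ext_Sal 12-F and Ctx_Sal 24-F (diamonds). The cortical list has a median of -0.78 with all libraries and 0.04 after the first removal, while the vesicle release list stays at -0.34 there and comes to -0.14 after the second.

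With all 14 libraries, the sign of an estimate followed the level of the gene. Among genes with a mean under 1 log2 CPM over the 42 Shell libraries, 23.9% had an estimate below 0 and the median log2 fold change was 0.19. From 1 to 3 log2 CPM the share was 30.8% and the median 0.15, from 3 to 5 it was 62.3% and -0.08, and at 5 and over it was 83.6% and -0.17. Series 4 alone did not show this order, with shares of 50.5%, 49.7%, 44% and 51.7% from the lowest band to the highest. Its medians were -0.006, 0.002, 0.021 and -0.006. From the lowest to the highest band the share rose from 30.5% to 76.8% in series 3 and from 20.5% to 82.9% in series F. The lists of abundant neuronal genes lie mostly in the upper bands, so their counts below 0 stand beside a share of 62.3% to 83.6% and not beside the 46% of all genes (54% had an estimate above 0). Summed receptor gene counts had a lowest, median and highest level of 9.55, 10.29 and 11.23 log2 CPM in Ext_Sal, against 7.90, 10.09 and 10.58 in Ctx_Sal. The means differed by 0.51 (two-sided exact permutation p = 0.242, adjusted p = 0.677 over 14 measures). Without Ext_Sal 12-F and Ctx_Sal 24-F, the highest and the lowest of the 14, the medians of the 4 bands were 0.018, 0.008, -0.004 and -0.029, and the number of genes at an unadjusted p under 0.05 was 467. Without Ctx_Sal 3-17, 4-17 and 22-F instead, the medians were 0.26, 0.21, -0.14 and -0.23.

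**Figure D4:**
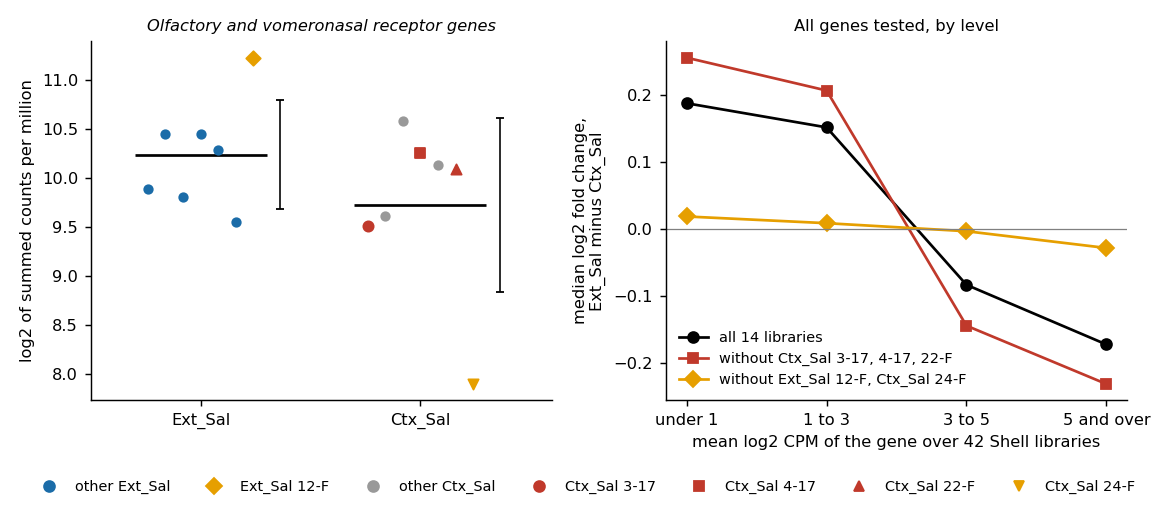
Left, log2 of summed CPM over 2033 receptor genes in each library, with group means and ± 1 SD. Right, median log2 fold change, Ext_Sal minus Ctx_Sal, of genes in 4 bands of mean level, with all 14 libraries and with libraries left out. The medians run from 0.19 in the lowest band to -0.17 in the highest, and stay between 0.018 and -0.029 without Ext_Sal 12-F and Ctx_Sal 24-F.

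The same conditions were also sampled in rats labelled Coc, for cocaine, and in the core. In the shell of cocaine rats, Ext_Coc against Ctx_Coc gave 0 calls among 30911 genes (0%) and 218 genes at an unadjusted p under 0.05, with 0.421% of genes higher and 0.285% lower. The difference between the saline and the cocaine contrast gave 0 calls (0%), a lowest adjusted p of 0.665 and 1528 genes at an unadjusted p under 0.05, with 1.13% above and 3.82% below 0 (edgeR). Nptxr had -1.71 ± 0.42 in saline and 0.74 ± 0.42 in cocaine rats, a difference of -2.46 ± 0.59 (SE, unadjusted p = 0.000177, adjusted p = 0.665). Olfm1 had 0.53 ± 0.31 in cocaine rats, a difference of -1.64 ± 0.44, and Mfng had -0.25 ± 0.15, a difference of 0.70 ± 0.22. The highest Ext_Coc level was 7.99 log2 CPM for Nptxr and 8.17 for Olfm1. The medians were 4.92 in Ext_Coc and 5.06 in Ctx_Coc for Nptxr, and 5.91 and 5.87 for Olfm1. The positive cocaine estimates of these 2 genes thus lean on the highest Ext_Coc level. Slc17a7 had 1.30 ± 0.94 in cocaine rats, where an Ext_Coc library held its highest level, and the difference was -4.35 ± 1.33.

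In the core of saline rats, Ext_Sal against Ctx_Sal gave 0 calls among 32145 genes (0%) and 458 genes at an unadjusted p under 0.05, with 0.296% higher and 1.13% lower. The difference between shell and core gave 0 calls (0%) and 96 genes at an unadjusted p under 0.05, with 0.205% above and 0.0933% below 0, and a lowest adjusted p of 1 (edgeR). That fit treats the libraries of shell and core as independent. Slc17a7 had -2.94 ± 0.90 in the core, and Nptxr -1.05 ± 0.42, a difference between subregions of -0.71 ± 0.59 for Nptxr. Cysltr1 had 0.56 ± 0.22 in the core beside 0.61 ± 0.18 in the shell. Arc had -0.57 ± 0.40 in the core, and its difference between subregions was -0.19 ± 0.57.

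**Figure D5:**
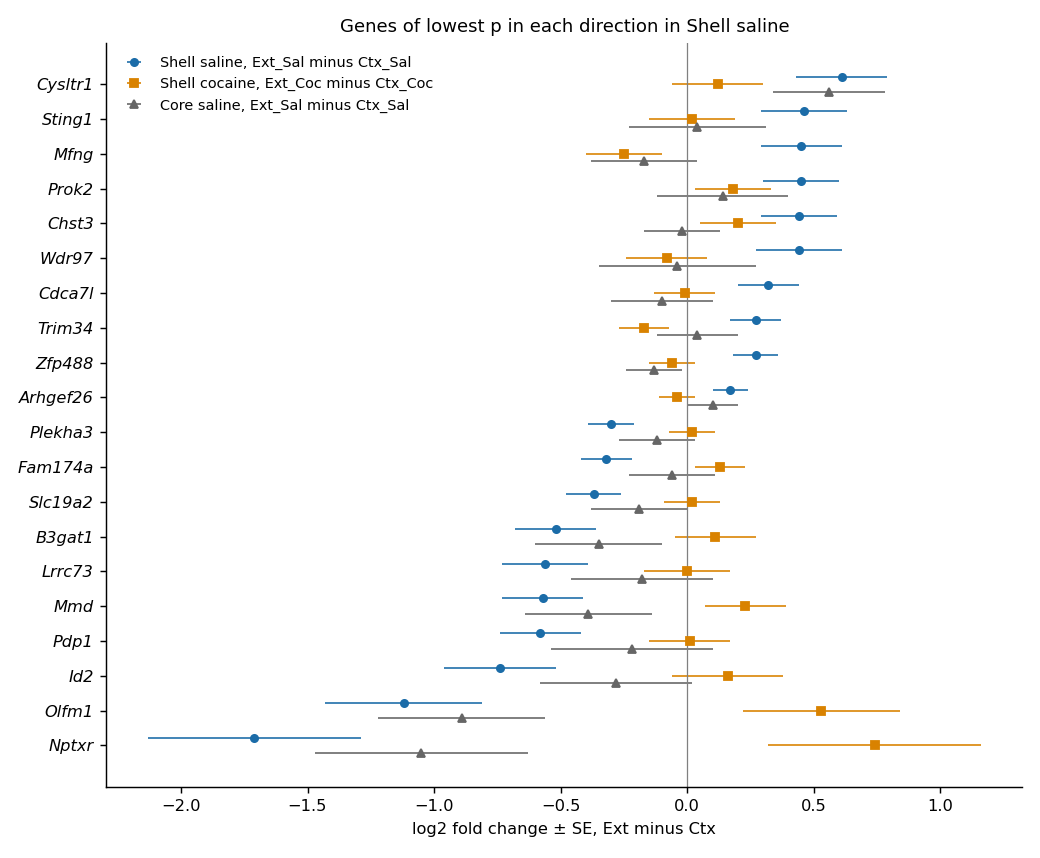
Log2 fold change ± SE, Ext minus Ctx, of the 20 genes of lowest p in the saline shell, in 3 contrasts: saline shell (circles), cocaine shell (squares) and saline core (triangles). Nptxr has -1.71 in the saline shell, 0.74 in the cocaine shell and -1.05 in the saline core, and the genes were chosen by the first of these.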

How the data were processed

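Total RNA libraries were made with a stranded low-input kit that needs no polyadenylation, per the labels' protocols. The deposited counts are whole numbers per gene. Per the submitters' processing notes the authors used featureCounts, and the genome build was mRatBN7.2. For the aligner, annotation and strand setting, nothing is given in the sources used here, so overlapping and antisense genes cannot be told apart. The deposited FPKM values of the authors were not used. The table held 41919 genes, and 0 of the 14 libraries were identical to another.

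Genes were kept by filterByExpr, scaled by TMM and tested with edgeR 4.0.16 (R 4.3.3) by the two-sided quasi-likelihood test, with p-values adjusted by Benjamini and Hochberg's method and called under 0.05. All 42 Shell libraries entered 1 fit with series as covariate; shell against core used 84 libraries, with F against numbered series. Log2 CPM used a prior count of 2. Marker sums were compared by exact permutation over 3432 assignments, whose smallest p is 0.000583. The test was checked on simulated data.

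Named genes were the 10 of lowest p in each direction among genes with a mean of at least 1 log2 CPM and a symbol, since none passed, and the 3 of lowest p in each of 33 lists; others were named after their values were seen. Members and lists were chosen with earlier results of these data known. Alternatives were DESeq2 1.42.0, its size factors, no filter, other covariates, surrogate variables (sva 3.50.0), single series and leaving out libraries. Leaving out the 5 libraries, and the levels used as joint covariates, were chosen after seeing the data. Not every gene that met the naming rule is reported here.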

Additional observations from a re-analysis of the deposited data

Results flagged for a closer look

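In 11 of the 148 groups of 7 values examined, 1 library lay apart from the other 6 by Dixon's criterion; chance alone flags about 1 in 20 groups. Ext_Sal 12-F was lowest of its group for Nptxr, at 4.00 log2 CPM where the others lay between 4.84 and 5.26, for Lrrc73, at 1.93 against 2.67 to 2.97, and for Kcnj9, at 2.55 against 3.27 to 3.72. Ctx_Sal 24-F was lowest for the summed receptor genes, at 7.90 against 9.51 to 10.58, and highest for the summed interneuron markers, at 8.56 against 8.13 to 8.29.

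Further values concerned vessel markers and single genes. Summed endothelial markers stood at 9.03 in Ext_Sal 3-6, against 8.32 to 8.62 in the other Ext_Sal libraries, and at 9.13 in Ctx_Sal 3-18, against 8.20 to 8.42. Summed mural and fibroblast markers stood at 9.60 in Ctx_Sal 3-18, against 7.33 to 7.58. Timp1 stood at 1.79 in Ctx_Sal 3-18, against 0.39 to 0.85. Aqp1 stood at 3.64 in Ext_Sal 3-6, against 1.61 to 2.47, and Prok2 at 2.13 in Ext_Sal 4-4, against 2.62 to 2.98.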

How the results depend on the processing

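The comparison of Ext_Sal with Ctx_Sal gave 0 calls in each of 30 other settings, 14 of which left out 1 library; the lowest adjusted p ran from 0.26 to 1. Genes at an unadjusted p under 0.05 numbered 2572 in the setting reported, 714 with only the 14 libraries, 3421 of 41738 without the filter, 4121 without Ctx_Sal 3-17, 4-17 and 22-F, 467 without Ext_Sal 12-F and Ctx_Sal 24-F and 276 without all 5. Of 59 genes followed, 46 kept their direction in every setting; 34 of 1770 gene and setting pairs had the other one. No paired analysis was possible because the 2 groups share no replicate number in the titles.

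The difference between saline and cocaine called 1 gene without Ctx_Sal 3-17, 4-17 and 22-F, LOC100363521, with -1.42 ± 0.24 and an adjusted p of 0.0341 (edgeR). The difference between shell and core called 1 gene with DESeq2's Wald test, LOC120100333, with -26.13 ± 4.52 and an adjusted p of 0.000237. An estimate of that size lies beyond any log2 CPM level given here and is not read as a change in expression. In edgeR the same difference called 0 genes. Other alternatives of these differences called 0.

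Log2 fold changes that turned were these; the cause was not tested. Without Ctx_Sal 3-17, 4-17 and 22-F, Slc17a7 had 0.03, Neurod2 0.32, Neurod6 0.34, Tbr1 0.25 and Cck 0.04. With the cortical marker level as covariate, Neurod2 had 0.03, Neurod6 0.12, Tbr1 0.17 and Cck 0.02. That level is the mean over the listed cortical markers, which include these genes and Nptx1. Their values near 0 under this covariate were therefore largely set by its make-up and carry no test. Without all 5 libraries, Tbr1 had 0.17, Cck 0.18, Nptx1 0.12, Nptx2 0.05, Drd2 0.02 and Bsn 0.00. With cortical level and receptor genes as covariates, Tbr1 had 0.26, Cck 0.09, Nptx1 0.02, Egr1 0.04, Drd1 0.03 and Drd2 0.06. In series 4 alone, Drd1 had 0.57, Drd2 0.23, Penk 0.29 and Tac1 0.39. Drd1 had 0.08 without series F, 0.10 with surrogate variables, 0.08 with receptor genes as covariate and 0.12 without Ext_Sal 12-F and Ctx_Sal 24-F; Drd2 had 0.01, 0.02 and 0.01 in the last 3 of these, and Tac1 0.00 in the last. Leaving out 1 library, Drd1 ran from -0.26 to 0.03.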
